A study of Mus musculus with 9 samples.

Results

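The insulin-like growth factor (IGF) axis was examined through 10 genes, chosen by name from the 25361 genes of the count table: the ligand gene Igf1, the receptor genes Igf1r and Igf2r, the adaptor gene Irs2 and the binding-protein genes Igfbp2, Igfbp3, Igfbp4, Igfbp5, Igfbp6 and Igfbp7. Of these 10 genes, 9 had a count in at least 1 library and 8 were deep enough to be tested among 9009 genes. RNA came from cells that CD8a magnetic beads recovered from MC38 tumours, a mouse colon carcinoma line grown under the skin of male wild-type C57BL/6N mice for 21 days. The 9 libraries form 3 groups of 3: aged restricted, from animals 20 months old that received 70% of the ad libitum food intake; aged ad libitum, from animals also 20 months old; and young ad libitum, from animals 5 months old. All 3 groups carried the same transplanted tumour line, and the series' design text calls the replicates biological and independent. The genes were chosen with earlier results of these data known, among them the rise of Igfbp3 with age, so the fits below describe them and are not independent evidence that the axis changed.

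IGF-1 and IGF-2 are secreted growth factors that activate the tyrosine kinase receptor encoded by Igf1r, which signals through the adaptors IRS1 and IRS2 to PI3K and AKT. The receptor encoded by Igf2r has no kinase, removes IGF-2 from the cell surface and sorts lysosomal enzymes. IGF-binding proteins hold IGFs in blood and tissue fluid and are themselves cleaved by proteases, and IGFBP7 is a related protein of low affinity that is abundant around blood vessels. In rodents, caloric restriction is known to lower IGF-1 in blood, which comes mainly from the liver and was not measured here.

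Igfbp3 and Igfbp7 had the largest fitted age differences of the 8 tested genes, and the 250 bases before their transcription starts are shown to let the upstream sequence be compared. The sequences are from RefSeq on GRCm38.p6 and run 5′ to 3′ on the strand of the gene, Igfbp3 from chr11:7213924-7214173 and Igfbp7 from chr5:77408046-77408295, both on the minus strand. Capitals mark ACGTG or GCGTG on either strand, the core of the element that hypoxia-inducible factors bind.
Igfbp3: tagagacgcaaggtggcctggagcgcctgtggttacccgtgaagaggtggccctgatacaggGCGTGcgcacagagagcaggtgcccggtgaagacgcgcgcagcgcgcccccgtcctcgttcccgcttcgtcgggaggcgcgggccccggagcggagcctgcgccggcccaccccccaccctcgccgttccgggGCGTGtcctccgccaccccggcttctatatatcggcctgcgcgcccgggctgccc
Igfbp7: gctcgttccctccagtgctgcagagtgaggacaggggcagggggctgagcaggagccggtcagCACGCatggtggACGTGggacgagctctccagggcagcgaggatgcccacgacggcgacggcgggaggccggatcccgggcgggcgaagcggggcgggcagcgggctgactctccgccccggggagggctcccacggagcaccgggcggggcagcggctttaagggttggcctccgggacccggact
Each window holds 2 such matches, in Igfbp3 at 188 to 184 and 55 to 51 bases before the start and in Igfbp7 at 187 to 183 and 175 to 171 bases. Windows of this length with at least 1 match made up 38.6% of 32851 mouse promoters, so a match is common. The forkhead core TAAACA, present in 12% of windows, and the cAMP response element TGACGTCA, present in 1.55%, were found in neither. G and C made up 73.2% of the Igfbp3 window and 74% of the Igfbp7 window, with 32 and 26 CpG dinucleotides. Among the members not shown, the windows of Igf2r, Igf1r, Irs2 and Igf1 held 6, 3, 3 and 1 matches to the hypoxia core. The 2 windows of Igfbp2 held 4 and 0, and those of Igfbp4, Igfbp5 and Igfbp6 held 0. Each CACGTG, as found for Igf2r, Irs2 and Igfbp2, counts here as 2 overlapping matches, 1 per strand. Such letters describe the windows, and no binding was measured. In the count table's own coordinates, whose build is not established, Igfbp3 spans 7156086 to 7163923 on chromosome 11 and Igfbp7 spans 77497087 to 77555888 on chromosome 5, both on the minus strand.

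Library totals ran from 1091933 to 1258575 counts in aged restricted, from 810662 to 908514 in aged ad libitum and from 1212238 to 1232975 in young ad libitum mice. Levels are given as CPM, the counts in every 1000000 of a TMM-scaled library, on which 1 count was worth 0.656 to 1.34 CPM. The libraries come from a 3′ method that reads each transcript near its polyadenylated end, so counts were not divided by length. Transcripts of the labelled CD8 T cells were scarce: the 10 T cell markers, all detected, summed to 178 to 417, 102 to 331 and 53.2 to 212 CPM in aged restricted, aged ad libitum and young ad libitum libraries, against 5848 to 10480, 2171 to 4985 and 3478 to 3622 CPM for 10 monocyte and macrophage markers. Cd8a, the target of the beads, had 47, 51 and 53 counts in aged restricted, 59, 4 and 32 in aged ad libitum and 54, 11 and 5 in young ad libitum libraries. Every level below is therefore one of a mixed cell suspension, in which fewer cells of a type and less RNA per cell cannot be told apart. Aged restricted replicate 2 stood apart, with a mitochondrial share of 23.53% against 37.71% and 45.67% in the other 2 restricted libraries and 1922 CPM of fibroblast markers against 614 and 693 CPM. Changes were tested with edgeR's quasi-likelihood test on all 9 libraries, and a gene counts as called at a Benjamini-Hochberg adjusted p under 0.05 over all tested genes. For aged against young mice 13 genes were called up and 13 down (12 and 7 when scaled by library totals), for restricted against ad libitum aged mice 62 and 23, and between restricted and young mice 100 and 75 (81 and 36 when scaled by library totals). The 3 comparisons share groups, so their values are set side by side only.

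Igfbp3, which encodes the main IGF carrier of blood, was the 1 gene of the axis that was called, and it was highest in aged ad libitum mice. Its counts were 49, 67 and 127 with restriction, 276, 113 and 295 in aged mice fed ad libitum and 46, 64 and 103 in young mice. As scaled levels these were 54.2, 44.0 and 113 CPM, 281, 152 and 363 CPM, and 38.0, 51.5 and 91.1 CPM. The lowest aged ad libitum library thus lay above the highest library of each other group, while the restricted and young libraries overlapped. Igfbp3 averaged 70.4 ± 37.2 CPM in aged restricted, 265 ± 106 CPM in aged ad libitum and 60.2 ± 27.6 CPM in young ad libitum mice (SD, n = 3 each).

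In the fit over all genes Igfbp3 rose with age by 2.14 ± 0.39 on the log2 scale (SE, edgeR adjusted p = 0.0163), a fold of 4.41. It fell under restriction by 1.92 ± 0.39 on the log2 scale (edgeR adjusted p = 0.0174), to a fold of 0.265 of the level in aged ad libitum mice. Restricted and young mice differed by 0.22 ± 0.39 (edgeR adjusted p = 0.913), which leaves room for a difference in either direction. Igfbp3 ranked 13 by p-value among the 9009 genes for age and 40 for restriction. Of all tested genes 0.289% were called for age (0.144% upward and 0.144% downward) and 0.944% for restriction (0.688% upward and 0.255% downward), beside 1 of 8 tested genes of the axis in each. The libraries did not overlap for 7.40% of all genes upward and 8.58% downward with age, and for 9.26% upward and 8.47% downward with restriction.

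The calls of Igfbp3 rested on few libraries. The age call was lost without young ad libitum replicate 1 (edgeR adjusted p = 0.0783) or replicate 2 (0.12) and without aged ad libitum replicate 1 (0.0626) or replicate 3 (0.0736). The restriction call was lost without aged ad libitum replicate 3 (0.0793) and without aged restricted replicate 1 (0.115) or replicate 2 (0.0602). Over the 9 fits that leave out 1 library the log2 fold change stayed between 1.84 and 2.55 for age and between -2.43 and -1.62 for restriction.

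**Figure D1:**
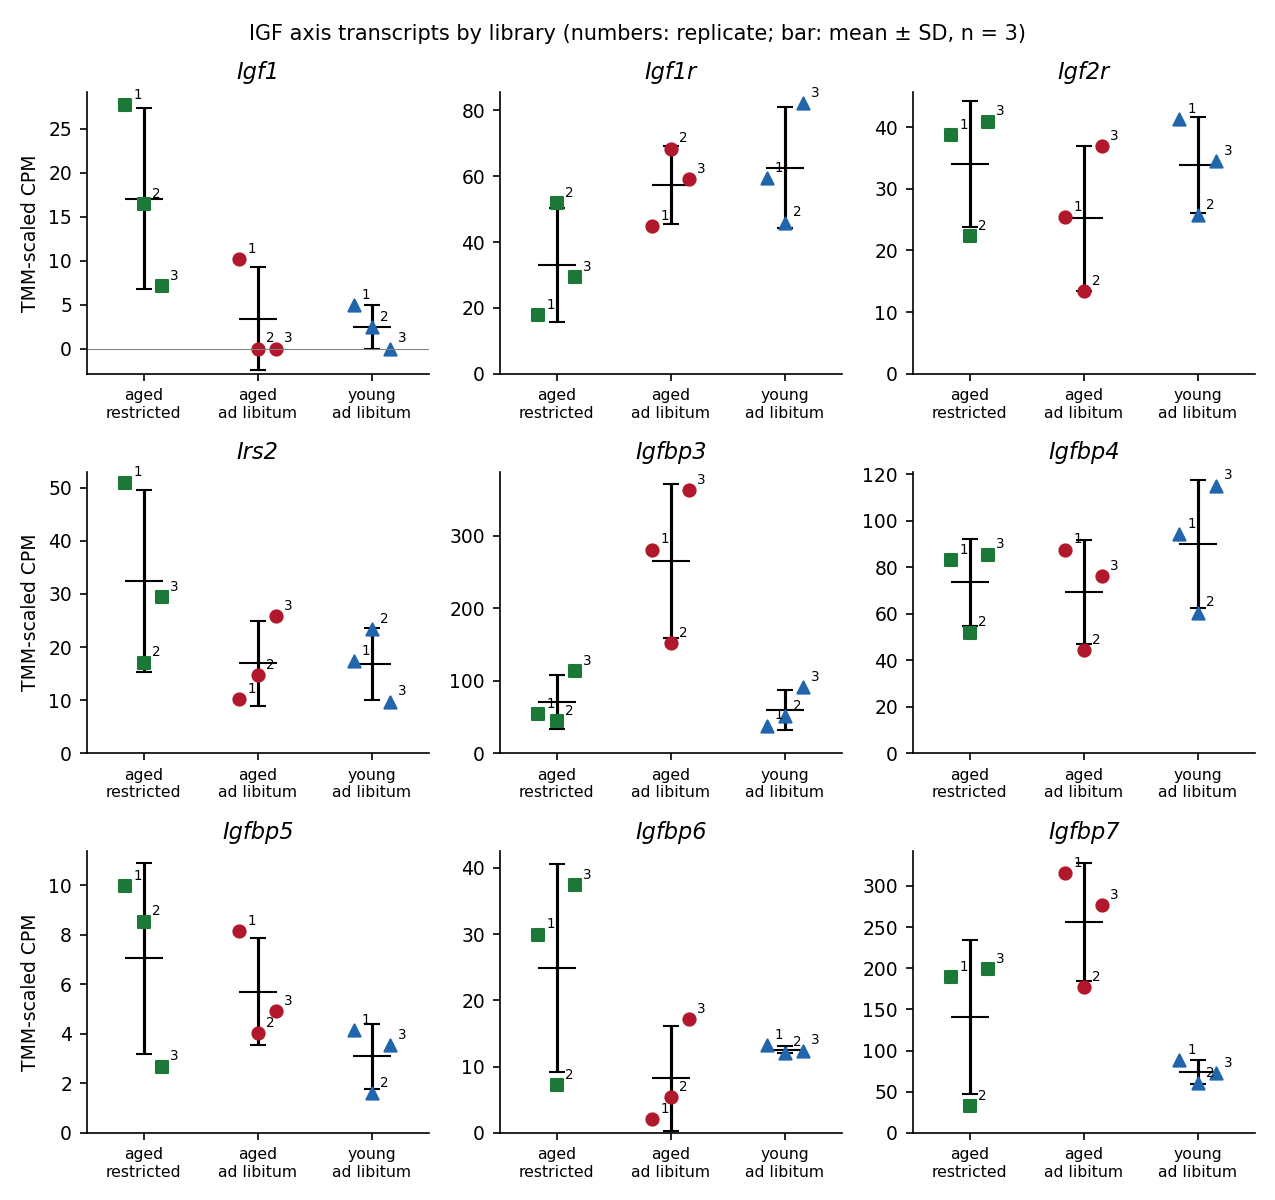
Level of each detected IGF axis gene (TMM-scaled CPM, linear axes that differ between panels) in each library; points are libraries numbered by replicate, and bars are the mean ± SD of 3 libraries. The 3 aged ad libitum libraries sit at 152 to 363 CPM of Igfbp3, above all 6 other libraries, and aged restricted replicate 2 is the lowest of all 9 for Igfbp7 at 32.8 CPM.

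Igfbp7, whose product is laid down around tumour vessels, was also highest in aged ad libitum mice but was not called. Its levels were 189, 32.8 and 199 CPM in aged restricted, 315, 177 and 277 CPM in aged ad libitum and 88.5, 60.4 and 72.5 CPM in young ad libitum libraries. All 3 aged ad libitum libraries lay above all 3 young ones, and in the restricted group replicate 2 lay below every young library while replicates 1 and 3 lay above them. The means were 140 ± 93.4, 256 ± 71.4 and 73.8 ± 14.1 CPM in aged restricted, aged ad libitum and young ad libitum mice (SD, n = 3). The log2 fold change was 1.80 ± 0.56 for age (edgeR adjusted p = 0.275), -0.88 ± 0.54 for restriction (0.605) and 0.91 ± 0.55 between restricted and young mice (0.609).

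The outcome for Igfbp7 changed when 1 restricted library was left out. Without aged restricted replicate 2 the age difference was 1.79 ± 0.25 (edgeR adjusted p = 6.24e-05) and that of restricted against young mice 1.39 ± 0.27 (0.00221), so both passed. With all 9 libraries the age difference also passed when genes of low count were kept (edgeR adjusted p = 3.31e-05). Without aged restricted replicate 2 the restriction difference was -0.40 and did not pass (edgeR adjusted p = 0.673). Igfbp7 shares its 3′ end over 85 bases with Polr2b on the opposite strand, and whether reads were counted by strand is not given in the sources used here. Polr2b had 30, 59 and 29 counts in aged restricted, 45, 14 and 24 in aged ad libitum and 7, 38 and 17 in young ad libitum libraries, against 171, 50 and 224, 310, 132 and 225, and 107, 75 and 82 counts of Igfbp7.

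**Figure D2:**
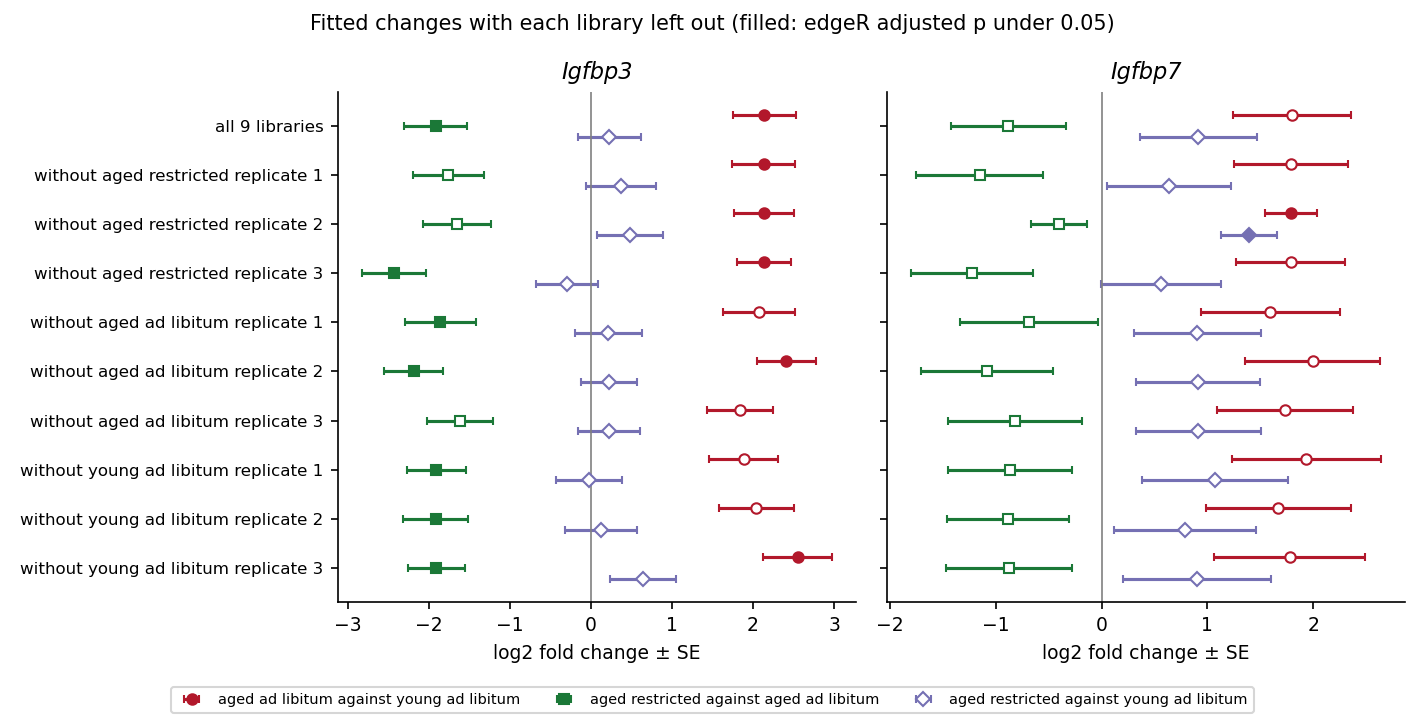
Log2 fold change ± SE of Igfbp3 (left) and Igfbp7 (right) in the fit of all 9 libraries and with each library left out; symbols stand for the 3 comparisons, each the first-named group over the second, and filled symbols for an edgeR adjusted p under 0.05. Igfbp3 is called for age in 5 and for restriction in 6 of the 9 fits that leave out a library, and Igfbp7 for age and between restricted and young mice in the 1 fit without aged restricted replicate 2.

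Igfbp4, a binding protein that restrains IGF-1 until the protease PAPP-A cleaves it, stood at 83.0, 51.8 and 85.4 CPM in aged restricted, 87.5, 44.2 and 76.2 CPM in aged ad libitum and 94.2, 60.4 and 115 CPM in young ad libitum libraries. Its groups overlapped in every comparison, and replicate 2 was the lowest of each group. Its log2 fold changes ran from -0.37 ± 0.34 for age to 0.07 ± 0.34 for restriction (edgeR adjusted p from 0.779 to 0.966 over the 3 comparisons).

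Igfbp6, which in vitro prefers IGF-2 to IGF-1, stood at 29.9, 7.22 and 37.4 CPM in aged restricted, 2.04, 5.36 and 17.2 CPM in aged ad libitum and 13.2, 12.1 and 12.4 CPM in young ad libitum libraries. Both aged groups spanned the narrow young range. The difference of restricted from ad libitum aged mice was 1.59 ± 0.76 on the log2 scale (edgeR adjusted p = 0.422) and 2.04 without aged restricted replicate 2 (0.254). Igfbp5, a binding protein of matrix and fibroblasts, was too shallow to test, with 9, 13 and 3 counts in aged restricted, 8, 3 and 4 in aged ad libitum and 5, 2 and 4 in young ad libitum libraries.

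Igfbp2, the neighbour of Igfbp5 on chromosome 1, had 0 counts in all 9 libraries, which with a floor of 3 counts allows up to 1.97 to 4.02 CPM in a single library. Such floors, and the intervals on counts given below, cover counting error only, since no molecular identifiers are described. On chromosome 11, Igfbp1 lies 3539 bases from Igfbp3 in the file's coordinates and had 1 count over all libraries, in aged ad libitum replicate 3.

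The make-up of the binding-protein counts separated the aged ad libitum libraries from the young ones. As a share of the summed counts of Igfbp2 to Igfbp7, Igfbp3 took 23.7% ± 8.04 in aged restricted, 43.1% ± 5.28 in aged ad libitum and 24.9% ± 7.87 in young ad libitum mice (SD, n = 3). Igfbp4 took 26.0% ± 8.70, 11.5% ± 1.14 and 37.0% ± 3.96 in the same groups, with the highest aged ad libitum library at 12.6% and the lowest young library at 32.5%. Igfbp7 took 40.0% ± 15.2, 43.1% ± 4.86 and 31.4% ± 6.33. The 6 genes together summed to 316 ± 153 CPM in aged restricted, 605 ± 194 CPM in aged ad libitum and 240 ± 54.3 CPM in young ad libitum mice. These shares are counts of 3′ reads and follow from the levels above, so they were not tested.

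**Figure D3:**
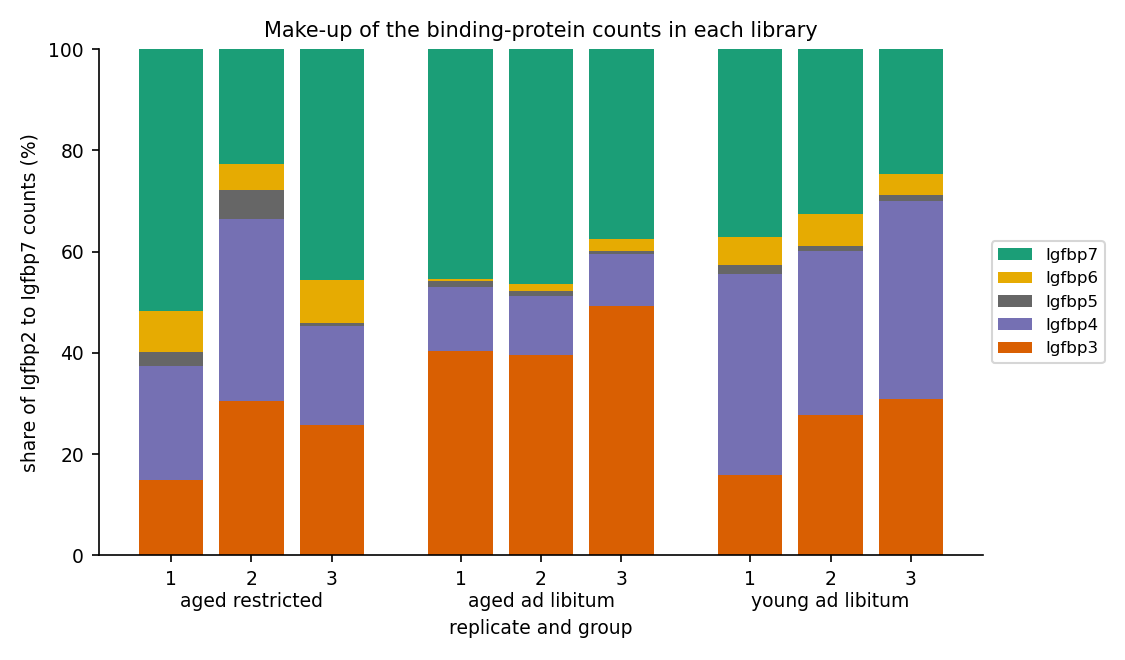
Share of each binding-protein gene in the summed counts of Igfbp2 to Igfbp7 (percent, stacked bars), 1 bar per library; Igfbp2 had 0 counts. Igfbp3 takes 39.6% to 49.2% in the aged ad libitum libraries, against 14.8% to 30.4% in the aged restricted and 16.0% to 30.9% in the young ad libitum libraries.

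Igf1, the ligand, was sparse and was found mostly in restricted mice. Its counts were 25, 25 and 8 with restriction, 10, 0 and 0 in aged mice fed ad libitum and 6, 3 and 0 in young mice. All 3 restricted libraries lay above all 3 young ones, and they overlapped the aged ad libitum group through that group's replicate 1. The summed counts were 58 in aged restricted against 10 in aged ad libitum libraries, or 4.15 times as many after scaling (95% exact interval on the counts, 2.10 to 9.11). That interval pools the libraries of each group and leaves out variation between mice. The fitted differences were 2.21 ± 1.25 on the log2 scale for restriction (edgeR adjusted p = 0.517), 2.72 ± 1.26 between restricted and young mice (0.398) and 0.51 ± 1.32 for age (0.936). Igf1 passed the filter on low counts through its 3 highest libraries, of which 2 were restricted.

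Igf1r, the signalling receptor, was lowest on average in restricted mice. It stood at 17.7, 51.8 and 29.4 CPM in aged restricted, 44.8, 68.4 and 59.0 CPM in aged ad libitum and 59.5, 45.9 and 82.3 CPM in young ad libitum libraries. Restricted replicates 1 and 3 lay below every library of mice fed ad libitum, and replicate 2 lay among them. The log2 fold change was -0.77 ± 0.40 for restriction (edgeR adjusted p = 0.471), -0.89 ± 0.40 between restricted and young mice (0.363) and -0.13 ± 0.39 for age (0.946). Without aged restricted replicate 2 it was -1.26 for restriction (edgeR adjusted p = 0.209) and -1.40 between restricted and young mice (0.101), which did not pass either.

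Igf2r, the clearance receptor of IGF-2, stood at 38.8, 22.3 and 40.9 CPM in aged restricted, 25.4, 13.4 and 36.9 CPM in aged ad libitum and 41.3, 25.8 and 34.5 CPM in young ad libitum libraries. The groups overlapped and the log2 fold changes ran from -0.42 ± 0.47 for age to 0.41 ± 0.47 for restriction, with edgeR adjusted p from 0.817 to 0.999 over the 3 comparisons.

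Irs2, the adaptor that links insulin and IGF-1 receptors to PI3K and that forkhead factors induce in fasted liver, stood at 50.9, 17.1 and 29.4 CPM in aged restricted, 10.2, 14.8 and 25.8 CPM in aged ad libitum and 17.4, 23.4 and 9.73 CPM in young ad libitum libraries. Restricted replicates 1 and 3 were above all 6 libraries of mice fed ad libitum, and replicate 2 was among them. The log2 fold change was 0.93 ± 0.57 for restriction (edgeR adjusted p = 0.575) and 0.92 ± 0.56 between restricted and young mice (0.578).

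Over the 8 tested genes of the axis the median log2 fold change was -0.07 with age, 0.24 with restriction and 0.57 between restricted and young mice, beside -0.0014, 0.000406 and 0.02 over all tested genes. For restricted against young mice none of the 8 was called by edgeR, DESeq2 or limma-voom, with 2 at an unadjusted edgeR p under 0.05 (Igf1r and Igf1), beside 1.94% of all genes called (1.11% upward and 0.833% downward). Libraries of the 2 groups did not overlap for 2 of the 8 genes with age (Igfbp3 and Igfbp7), 1 with restriction (Igfbp3) and 1 between restricted and young mice (Igf1), beside 16.0%, 17.7% and 19.1% of all tested genes. Between restricted and young mice that was 9.82% upward and 9.26% downward.

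**Figure D4:**
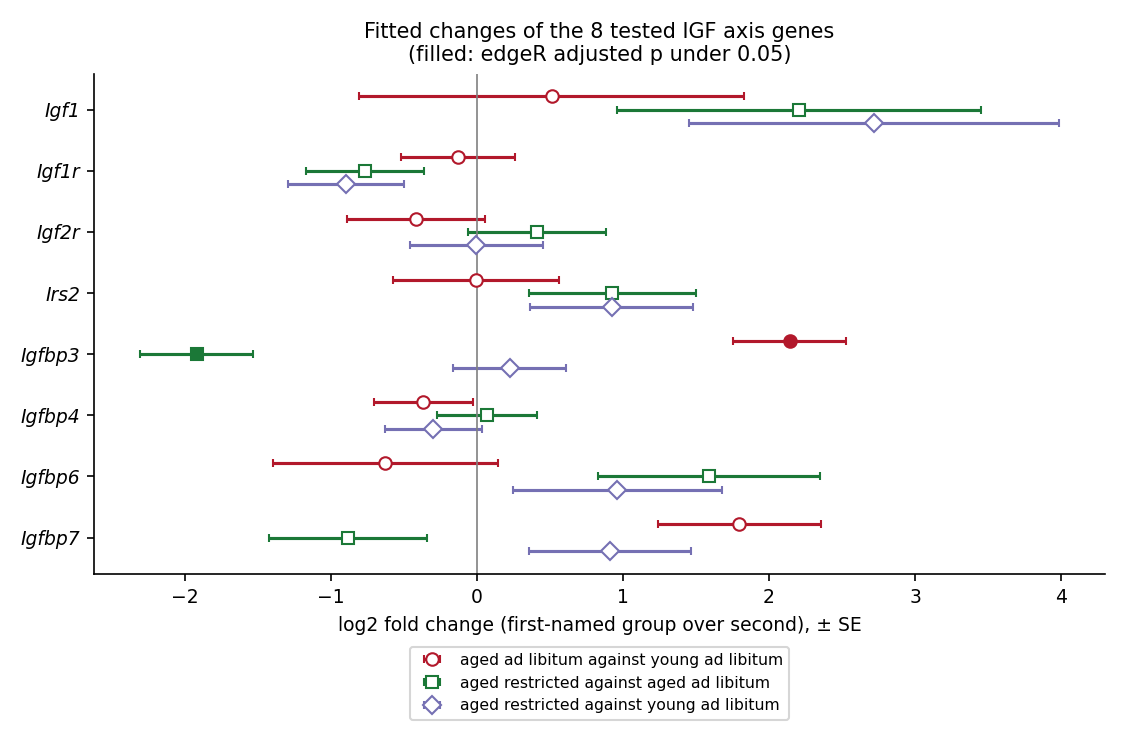
Log2 fold change ± SE of the 8 tested genes (rows) in the 3 comparisons (symbols), each the first-named group over the second; filled symbols have an edgeR adjusted p under 0.05. Igfbp3 is the 1 gene with filled symbols, at 2.14 for age and -1.92 for restriction.

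Among other parts of the axis, Stc1 was called in the same 2 comparisons as Igfbp3. Stc1 encodes stanniocalcin-1, an inhibitor of the protease PAPP-A that cleaves IGFBP4. It stood at 11.1, 24.9 and 43.6 CPM in aged restricted, 155, 68.4 and 135 CPM in aged ad libitum and 28.1, 7.25 and 23.0 CPM in young ad libitum libraries, so that the aged ad libitum libraries lay above all others. Stc1 rose with age by 2.62 ± 0.48 on the log2 scale (edgeR adjusted p = 0.00925) and fell by 2.16 ± 0.47 under restriction (0.0199).

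The Stc1 calls too depended on single libraries. That for age was lost without young ad libitum replicate 2 (edgeR adjusted p = 0.0722) or replicate 3 (0.0617) or aged ad libitum replicate 3 (0.0626). That for restriction was lost without aged ad libitum replicate 1 (0.0558) or replicate 3 (0.0908) or aged restricted replicate 1 (0.104) or replicate 2 (0.0582). Of the 9 listed binding proteins, IGFBP proteases and their inhibitors, the other tested gene was Htra1, a secreted protease, at 161 ± 28.0, 182 ± 39.5 and 142 ± 24.9 CPM in aged restricted, aged ad libitum and young ad libitum mice (SD, n = 3), which was not called. Pappa, the gene of PAPP-A, had 3 counts in all, 2 in aged ad libitum replicate 1 and 1 in young ad libitum replicate 2.

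None of the 5 tested genes among 11 other ligands, receptors and adaptors was called by edgeR, DESeq2 or limma-voom in any comparison, with 1 at an unadjusted edgeR p under 0.05 for age, 1 for restriction and 0 between restricted and young mice. Igf2, the fetal growth factor, stood at 16.6, 20.3 and 53.4 CPM in aged restricted, 3.05, 1.34 and 13.5 CPM in aged ad libitum and 11.6, 26.6 and 12.4 CPM in young ad libitum libraries. Every restricted library lay above every aged ad libitum one, at a difference of 2.32 ± 0.74 on the log2 scale (edgeR adjusted p = 0.149). Insr, the insulin receptor, averaged 8.84 ± 2.26 CPM in aged restricted, 21.1 ± 5.18 CPM in aged ad libitum and 4.37 ± 4.15 CPM in young ad libitum mice (edgeR adjusted p = 0.348 for age). Irs1, the sister adaptor of Irs2, averaged 12.6 ± 4.25, 10.2 ± 5.38 and 24.5 ± 3.39 CPM in the same groups, and all aged ad libitum libraries lay below all young ones (edgeR adjusted p = 0.506 for age). Ins1, Ins2, Irs3 and Irs4 had 0 counts in all libraries.

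None of the signalling genes below the receptor was called. Of 20 tested genes of PI3K, AKT and mTOR signalling, 17 had a higher fitted level in aged than in young mice (median 0.35 on the log2 scale) and 14 a lower one in restricted than in ad libitum aged mice (median -0.24). Among all 9009 tested genes, 4495 were fitted higher with age and 4504 lower under restriction. Neither edgeR, DESeq2 nor limma-voom called any of the 20 in a comparison, and 2 had an unadjusted edgeR p under 0.05 in each. Rictor, a scaffold of mTOR complex 2, averaged 17.5 ± 4.98, 25.9 ± 9.77 and 8.59 ± 3.58 CPM in aged restricted, aged ad libitum and young ad libitum mice (SD, n = 3). Gsk3b, a kinase that AKT inhibits, averaged 79.0 ± 12.9, 124 ± 39.2 and 137 ± 34.8 CPM, with edgeR adjusted p = 0.386 for restriction.

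Of 10 tested forkhead (FOXO) factors and targets none was called by any of the 3 tools or had an unadjusted edgeR p under 0.05, with a median log2 fold change of -0.07 for age and 0.11 for restriction. Foxo1, a transcription factor that AKT keeps out of the nucleus, averaged 19.9 ± 6.81, 7.64 ± 3.77 and 19.8 ± 5.10 CPM in aged restricted, aged ad libitum and young ad libitum mice (SD, n = 3), with the aged ad libitum libraries below all others (edgeR adjusted p = 0.484 for age and 0.432 for restriction). Txnip, a FOXO target that limits glucose uptake, averaged 170 ± 34.8, 122 ± 23.8 and 135 ± 35.7 CPM, and Sesn3, a stress-induced brake on mTOR complex 1, averaged 13.1 ± 7.48, 26.7 ± 29.1 and 9.83 ± 2.48 CPM.

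Growth hormone signalling drives Igf1 in liver, and none of its 7 tested genes was called by edgeR, with 0 at an unadjusted p under 0.05 for age, 1 for restriction and 1 between restricted and young mice. DESeq2 called 1, for restriction, and limma-voom 0. Socs3, a feedback inhibitor of cytokine and growth hormone receptors, averaged 237 ± 31.8, 124 ± 15.8 and 160 ± 5.54 CPM in aged restricted, aged ad libitum and young ad libitum mice (SD, n = 3). Its restriction difference of 0.93 ± 0.24 on the log2 scale lay at the threshold, with an edgeR adjusted p = 0.0503 and a DESeq2 adjusted p = 0.0103. Stat5a averaged 9.47 ± 4.37, 11.5 ± 9.96 and 23.2 ± 12.4 CPM and Stat5b 13.4 ± 7.80, 27.6 ± 6.35 and 22.9 ± 3.25 CPM in the same groups. Both encode transcription factors that growth hormone activates.

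Endothelial markers were highest on average in aged ad libitum mice, like Igfbp3 and Igfbp7. The part of any marker set in these results was not tested. The 10 endothelial markers, all detected, summed to 66.3 to 299 CPM in aged restricted, 243 to 589 CPM in aged ad libitum and 81.3 to 144 CPM in young ad libitum libraries. All 9 tested endothelial genes had a higher fitted level with age (median 1.80, none called by edgeR, 8 at an unadjusted p under 0.05, 4 called by DESeq2 and 1 by limma-voom) and a lower one under restriction (median -1.17, 1 called). Per endothelial count, Igfbp3 had 0.440 ± 0.200 counts in aged restricted, 0.643 ± 0.177 in aged ad libitum and 0.593 ± 0.310 in young ad libitum mice (SD, n = 3), and these ranges overlapped. For Igfbp7 the ratios were 0.711 ± 0.241, 0.632 ± 0.097 and 0.686 ± 0.065, which overlapped as well. Against the 10 fibroblast markers, of which Fap was at 0, Igfbp3 had a ratio of 0.158 to 0.342 in aged ad libitum and 0.0369 to 0.0648 in young ad libitum libraries, which did not overlap, and of 0.0229 to 0.184 in aged restricted libraries. For Igfbp7 these ratios were 0.185 to 0.289, 0.0516 to 0.0858 and 0.0171 to 0.325, in the same order. Against mural cell markers, aged ad libitum libraries also lay above young ones. Igfbp3 had 1.98 to 6.02 against 0.597 to 1.355, and Igfbp7 2.32 to 4.59 against 1.08 to 1.47. Aged restricted libraries had 1.08 to 4.54 for Igfbp3 and 0.8065 to 8.0 for Igfbp7.

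**Figure D5:**
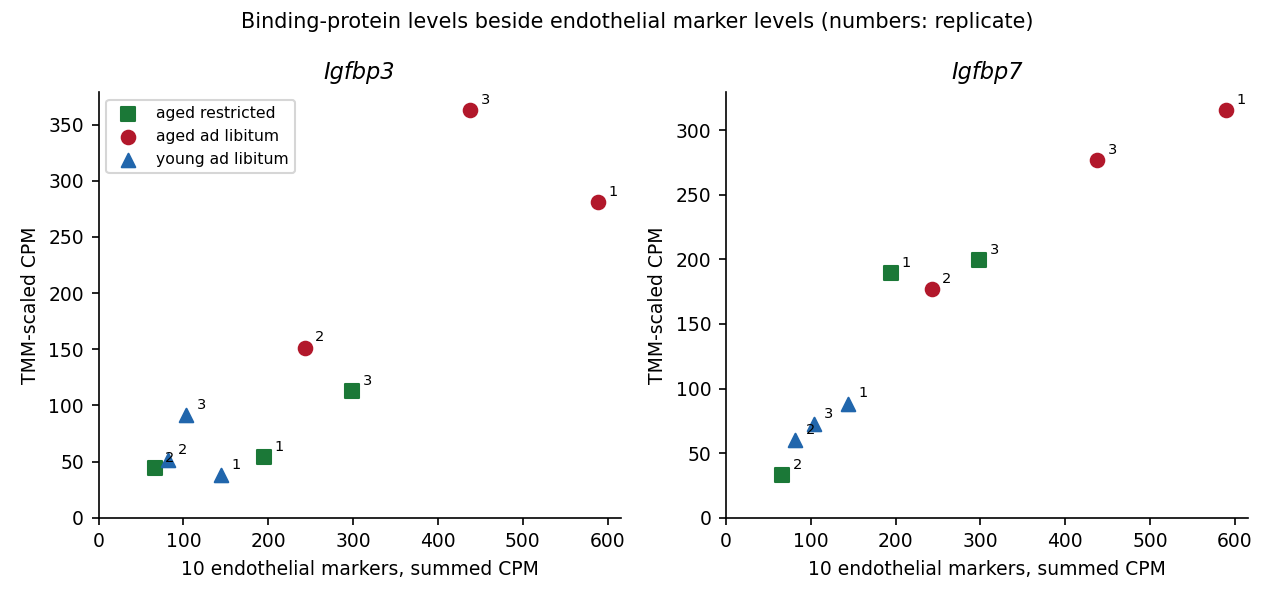
Level of Igfbp3 (left) and Igfbp7 (right), in TMM-scaled CPM, against the summed CPM of 10 endothelial markers; points are libraries, coloured by group and numbered by replicate. The aged ad libitum libraries lie at 243 to 589 CPM of endothelial markers, the young ones at 81.3 to 144 CPM, and aged restricted replicate 3 at 299 CPM, where it has 113 CPM of Igfbp3, below every aged ad libitum library, and 199 CPM of Igfbp7.

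Hypoxia response genes, among which Igfbp3 is often counted, had no member called by edgeR. Between restricted and young mice DESeq2 and limma-voom each called 1, with 1 at an unadjusted edgeR p under 0.05. The 11 genes measured, all detected, summed to 823 to 1417 CPM in aged restricted, 1396 to 1558 CPM in aged ad libitum and 852 to 1519 CPM in young ad libitum libraries. Of 10 tested genes, 10 had a higher fitted level with age (median 0.44 on the log2 scale) and 9 a lower one under restriction (median -0.61), none called by edgeR, with 0 and 3 at an unadjusted p under 0.05 and 0 and 1 called by DESeq2 and by limma-voom. Hk2, a hexokinase of glycolysis, averaged 85.4 ± 17.3, 179 ± 8.87 and 169 ± 57.0 CPM in aged restricted, aged ad libitum and young ad libitum mice (SD, n = 3; edgeR adjusted p = 0.0531 for restriction, 0.0219 with DESeq2 and 0.0445 with limma-voom). Vegfa averaged 53.3 ± 8.53, 102 ± 41.6 and 72.3 ± 25.8 CPM, and Pgk1 376 ± 130, 536 ± 55.6 and 492 ± 142 CPM. Per hypoxia-set count, Igfbp3 had 0.0992 to 0.233 counts in aged ad libitum and 0.0339 to 0.0626 in young ad libitum libraries, which did not overlap, and 0.0310 to 0.137 in aged restricted libraries. For Igfbp7 these were 0.116 to 0.226 and 0.0398 to 0.104, which did not overlap either, and 0.0232 to 0.242.

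Marker sums of other possible sources were as follows. Mural cell markers, all 6 detected, summed to 24.9 to 42.1, 60.2 to 124 and 41.1 to 67.2 CPM in aged restricted, aged ad libitum and young ad libitum libraries. None of the 3 deep enough to be tested was called by edgeR, DESeq2 or limma-voom. At an unadjusted edgeR p under 0.05 there were 1, 1 and 0 for age, restriction and restricted against young. Keratinocyte markers, all 8 detected, summed to 286 to 686, 30.5 to 122 and 2.48 to 9.73 CPM. Of these, edgeR called 2 upward for age, 3 for restriction and 7 between restricted and young mice. Skeletal muscle markers, all 7 detected, summed to 34.8 to 209, 5.09 to 20.9 and 0 to 3.22 CPM. Of the 2 tested, edgeR called 1, upward between restricted and young mice. Adipocyte markers, with Adipoq, Plin1 and Lep of 7 at 0, summed to 75.3 to 80.9, 89.8 to 118 and 7.96 to 47.1 CPM. The 1 tested adipocyte gene was not called by edgeR. DESeq2 called it for age, and limma-voom for age and between restricted and young mice. Epithelial markers, with Krt18, Krt19 and Cldn7 of 7 at 0, summed to 9.78 to 18.4, 0 to 7.38 and 0 to 4.13 CPM. None of the epithelial markers was deep enough to be tested. Monocyte and macrophage markers were highest on average in restricted mice, like Igf1. They had 5 of 10 genes called upward under restriction and a median of 1.26 on the log2 scale. T cell, keratinocyte, skeletal muscle and epithelial sums were also highest on average in restricted mice. The part of these sets in the Igf1 counts was not tested.

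The genes most like each member in pattern were taken as those with the smallest root mean square difference of centred log2 CPM over the 9 libraries. For Igfbp3 these were Eng (difference 0.475 log2 units, against a median of 1.24 over all genes), which encodes the endothelial co-receptor endoglin, Chst1 (0.499), a sulfotransferase, and Arap2 (0.538). For Igfbp7 they were Ctla2a (0.374), Egfl7 (0.388), a secreted factor of endothelium, and Esam (0.41), an endothelial adhesion molecule, of which Egfl7 and Esam are among the 10 endothelial markers. Eng averaged 21.4 ± 5.92, 44.9 ± 12.4 and 11.3 ± 4.66 CPM in aged restricted, aged ad libitum and young ad libitum mice (SD, n = 3). For Igf1 they were Dennd6a (0.486), Cd53 (0.558), a tetraspanin of leukocytes, and Rcsd1 (0.567). For Igf1r they were Procr, Swt1 and Zmat3, at 0.224 to 0.254, and for Irs2 they were Wbp1l, Hes6 and Atraid, at 0.288 to 0.313. Igf2r was closest to Tmem160, Siah2 and Ppp5c, Igfbp4 to Dad1, Bcl2l11 and Prelid1, and Igfbp6 to Hes6, Myo9b and Nrde2.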

How the data were processed

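The deposited table holds raw read counts for 9 libraries. Per the labels' protocols, the kit was QuantSeq 3′, with single reads of 75 bp. The submitters' processing notes name Trim Galore, STAR, featureCounts and the build GRCm38 (mm10). Versions, strand and the treatment of reads with several matches are not given in the sources used here. Start and end matched GENCODE M21 (GRCm38) for only 2.12% of the 25268 genes shared with it, so the build of the file's own coordinates is not established and none were converted.

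Counts were fitted in R 4.3.3 with edgeR 4.0.16 (filterByExpr by group with minimum count 10, TMM scaling, robust quasi-likelihood test, 6 residual degrees of freedom) with 1 mean per group over the 9 libraries and Benjamini-Hochberg adjustment over 9009 genes; the biological coefficient of variation was 40.5%. The fit was tested on simulated data. SE is the absolute log2 fold change divided by the root of the F statistic. Alternatives were other scalings, no filter, DESeq2 1.42.0, limma-voom (limma 3.58.1), fits of the 2 groups compared, each library left out, and the replicate number as a block. Within groups, no pair of libraries was as close as sampling noise (lowest chi-square over its degrees of freedom 5.65).

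The members and lists were chosen with earlier results of these data known, and lists are described by counts and medians. Named were all 10 members, called genes of 6 pathway lists or otherwise up to 3 with the smallest p-values, and 3 genes most like each tested member, without predicted gene models. A gene that this rule names is not reported here. Htra1, Pappa, Igfbp1 and Polr2b were chosen after their values were seen.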

Additional observations from a re-analysis of the deposited data

How the results depend on the processing

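The direction of Igfbp3 was the same under all 17 alternatives for age and for restriction, and it was called under all 8 that do not leave out a single library, at 2.13 to 2.21 and at -1.99 to -1.89 on the log2 scale. With 1 library left out, 0 to 2 members were called for age, 0 to 1 for restriction and 0 to 1 for restricted against young mice, and 2 to 91, 35 to 157 and 98 to 242 genes in all. Members called for age were 2 without the filter, with the replicate block and with only the 2 groups compared, Igfbp7 being the second each time (adjusted p = 3.31e-05, 0.00739 and 0.000347). Against 26 genes for age there were 126 without the filter, 91 with DESeq2, 49 with the replicate block and 58 with only the 2 groups. Against 85 for restriction there were 50 with library totals, 224 without the filter, 171 with DESeq2, 133 with the replicate block and 43 with only the 2 groups. Against 175 for restricted against young mice there were 286 without the filter. The cause of these shifts was not tested.

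Replicate numbers were not taken as pairs, since deviations of same-numbered libraries correlated at only -0.028 to 0.077. As a hint from the data and not from the design, 13 of 18 comparisons of a library with another group were highest for its own number, where 6 would be with no relation. Directions that turned belonged to differences that were not called. For age, Irs2 was at 0.016 with RLE size factors, 0.012 with library totals, 0.017 with DESeq2, 0.011 with only the 2 groups and -0.45 to 0.30 with a library left out; Igf1 was at -0.21 with limma-voom and -4.50 to 1.44 with a library left out, the lowest value being against 2 libraries at 0 counts; Igf1r ran from -0.31 to 0.11 and Hk2 from -0.16 to 0.34. For restriction, Igfbp4 ran from -0.16 to 0.29. For restricted against young mice, Igf2r was at 0.012 with RLE size factors and with DESeq2, 0.0050 with library totals and without mitochondrial genes, and -0.17 to 0.23 with a library left out, Igfbp3 ran from -0.30 to 0.64 and Stc1 from -0.060 to 0.83. Depth limits Igfbp2, at 0 counts, and Igf1, Igfbp5 and Igfbp6, which have under 10 counts in 2 or more libraries.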
